A study of Mus musculus with 2 samples.

Results

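A set of 9 genes whose products are used to mark stem-like or pluripotent cells was examined in 4T1 cells, a mouse mammary carcinoma line of BALB/C origin. They were the pluripotency factors Nanog and Pou5f1, the surface glycoproteins Cd44 and Cd24a, the prominins Prom1 and Prom2, the receptors Lgr5 and Procr, and Ly6a, which encodes the surface antigen SCA-1. Every non-control probe that the array files name for one of these 9 genes was taken, which gave 15 of 55681 probes and 9 of 34797 gene names. The genes were chosen by name with the signals and log2 ratios of these same 2 arrays in view, so those values are given below as a description, with no test.

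Cultured, untreated 4T1 cells had been stained with ALDEFLUOR, a fluorescent substrate of aldehyde dehydrogenase (ALDH), and sorted by flow cytometry into cells of high and of low ALDH activity. Total RNA of each population was hybridised to 1 one-colour Agilent array with probes of 60 bases. The sample labels call one population cancer stem cell (S) and the other anti cancer stem cell (NS). That these are the ALDH-positive and the ALDH-negative cells, respectively, rests on the study's design text and methods and not on the labels themselves. Both populations come from 1 cell line, and with 1 array each no spread between cultures, no SD and no p-value can be given. The only errors given are those that the scanner software assigns to the signals of a spot, combined over both arrays on the log2 scale, and they do not cover the difference between separate sorts. For bright probes they lie close to 0.20 whatever the gene, so they are not a spread measured between spots.

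NANOG and OCT4, the product of Pou5f1, belong to the transcription factor network that keeps embryonic stem cells undifferentiated. CD44 is a hyaluronan receptor whose long forms carry variant exons, CD24 is a small lipid-anchored glycoprotein, and a high CD44 and low CD24 surface profile has been used to isolate breast cancer stem-like cells. Prominin-1, known as CD133, and prominin-2 are related membrane proteins of microvilli and other protrusions. LGR5 is a receptor for R-spondins that marks stem cells of the intestine and other epithelia, PROCR is the endothelial protein C receptor and marks a group of mammary stem cells, and SCA-1 is a marker of mouse blood stem cells and of some mammary tumour cells.

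The sequences of 6 probes are shown because the results turn on them: those of the only 2 members' probes that differed between the arrays beyond the limits used here, the other Prom2 probe, and the Cd44 probes that differ in where they lie in the transcript. Positions follow the array files, which use mouse assembly NCBI37, and each probe is named by its gene and by the position of its first base in the listed transcript. The first 30 of 60 bases are given for Nanog 1235 and Prom2 3957. The capitals mark the 20 bases of the Nanog probe that recur most often in promoters and the stop codon inside Cd44 2614.
Nanog 1235: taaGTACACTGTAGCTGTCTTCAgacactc
Prom2 1796: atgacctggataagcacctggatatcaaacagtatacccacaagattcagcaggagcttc
Prom2 3957: ttatgaatgtacaagcaagttttgctgcta
Cd44 1777: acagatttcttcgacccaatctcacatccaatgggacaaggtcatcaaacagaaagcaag
Cd44 1965: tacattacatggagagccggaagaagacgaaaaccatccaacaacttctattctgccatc
Cd44 2614: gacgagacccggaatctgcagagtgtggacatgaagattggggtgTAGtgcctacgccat
Nanog 1235 lies at chr6:122663676-122663735 on the plus strand. The others lie on the minus strand of chromosome 2: Prom2 1796 at chr2:127358592-127360592, a span of 2001 bases and so a probe across an exon junction, Prom2 3957 at chr2:127352896-127352955, Cd44 1777 at chr2:102677971-102678030, Cd44 1965 at chr2:102672645-102672704 and Cd44 2614 at chr2:102654278-102654337. No transcript annotation of this assembly was used, so no probe was assigned to an exon or untranslated region from a file, apart from what the span of Prom2 1796 and the stop codon in Cd44 2614 show.

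A probe is called measured here where its signal was well above the local background on at least 1 array. It is called higher in ALDH-positive cells where its Z-score is at least 2.0 and its ratio at least 1.5, and lower where its Z-score is -2.0 or below and its ratio at most 0.75. The Z-score sets the log2 ratio against those of 500 probes of similar signal. In all, 9 of the 15 probes, from 6 genes, were measured. Of these 9 probes, 1 was higher in ALDH-positive cells (Prom2 3957), 1 was lower (Nanog 1235) and 7 were not called. Over the whole array, 1.43% of the 28585 measured probes were higher and 2.86% were lower. The log2 ratio of ALDH-positive over ALDH-negative cells was above 0 for 8 of the 9 probes, with a median of 0.17, whereas the median over all measured probes was 0.015. These probes are not separate genes: 4 of the 8 are of Cd44, whose probe at 5494 gives the median, and Cd24a lies at 0.00083. The log2 ratio was smaller than its own error for 5 of the 9 probes and larger for 4.

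**Figure D1:**
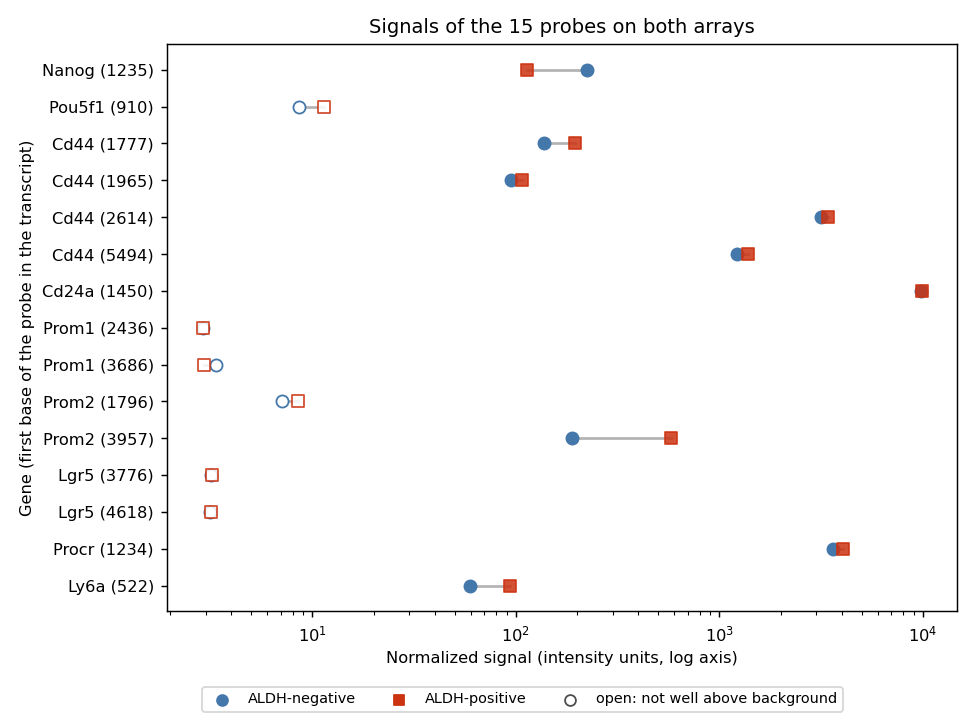
Normalized signal in intensity units (horizontal, log axis) of each of the 15 probes on the ALDH-negative (circles) and ALDH-positive (squares) array, 1 array per population, with open symbols where the probe was not well above background on either array. The pair of Prom2 3957 runs from 189 to 579 and that of Nanog 1235 from 222 down to 113, whereas the symbols of Cd24a 1450 coincide; signals of different probes are not comparable with each other.

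**Figure D2:**
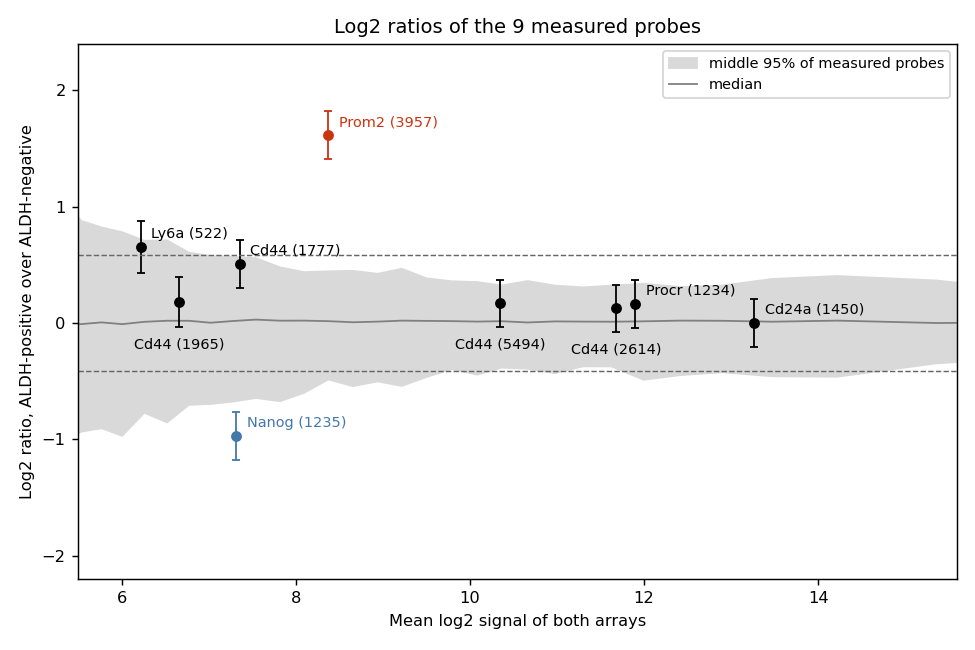
Log2 ratio of ALDH-positive over ALDH-negative cells (vertical) against the mean log2 signal of both arrays (horizontal) for the 9 measured probes, with bars for the error of the scanner software, a grey band for the middle 95% of measured probes at each signal and dashed lines at ratios of 1.5 and 0.75. Prom2 3957 at 1.62 lies above the band, Nanog 1235 at -0.97 lies below it, and the other 7 points lie inside it.

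The probe listed for Nanog, the pluripotency factor, was lower in ALDH-positive cells. Its normalized signal was 222 in the ALDH-negative population and 113 in the ALDH-positive one, well above background on both arrays. The log2 ratio was -0.97 (error 0.21), a ratio of 0.510, and the Z-score was -2.75. Of the 500 probes nearest to it in signal, 6 had a smaller log2 ratio, and of all measured probes 854 did. The direction was already there before the arrays were normalized to each other, when the processed signals were 190 and 131, and the mean signals of the spot, 282 and 211, stood over backgrounds of 56 and 55. The spot lay in the interior of the array, and the 210 measured probes within 10 rows and 10 columns of it had a median log2 ratio of -0.016, with 0 higher and 3 lower. The Nanog signal rests on this 1 probe and 1 spot per array.

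The Nanog probe is not unique in sequence. A stretch of at least 20 bases of it occurred in 61 of 32851 mouse promoter windows of RefSeq (GRCm38.p6), or 0.186%, with 31 windows on the same strand and 30 on the other. The 20 bases in capitals, bases 4 to 23 of the probe, were the most frequent and occurred in 42 windows, and the shared stretches together reached from base 1 to base 56. None of the other 14 member probes shared 20 bases with any of these windows. For stretches of 16 bases, the Nanog probe occurred in 83 windows, Cd44 5494 in 26 and Prom1 2436 in 1. From general knowledge of mouse repeats, the shared stretch resembles part of the B2 element, a short interspersed repeat present in many copies, although no repeat annotation was used here. On the array itself, 12 probes shared 20 bases of the Nanog probe on the opposite strand, and they were bright, with signals between 118493 and 295102. All 12 had log2 ratios below 0, from -0.22 to -0.046 with a median of -0.15, and none was called. Being on the opposite strand, they do not measure the RNA that the Nanog probe would bind. As all share bases with that 1 probe, they may not be 12 separate measurements. On the same strand, 1 other probe shared 20 bases with it. That probe, listed for Zfp872, gave 15.0 and 11.1, a log2 ratio of -0.43 (error 0.47), and was not called. Its signals lie around the lowest normalized signals well above background, 13.1 on the ALDH-negative array and 12.7 on the other. Whether RNA from repeat copies contributed to the Nanog signal was not tested.

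Pou5f1, the partner of NANOG in the pluripotency network, was not well above background on either array. Its single probe, at chr17:35647280-35647340, gave processed signals of 8.29 in the ALDH-negative population and 12.2 in the ALDH-positive one, and a fold is not given. It shared 20 bases with a probe listed for Gm5712. Thus, of the pair of pluripotency factors, only Nanog had a probe that could be compared between the populations.

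Cd44 was detected by all of its 4 probes in both populations, and none was called. Cd44 1777 gave 137 in the ALDH-negative population and 195 in the ALDH-positive one, a log2 ratio of 0.51, error 0.21 and Z-score 1.42. Cd44 1965 gave 94.7 and 107.3, a log2 ratio of 0.18 (error 0.21). These probes lie 188 bases apart in the transcript but 5326 bases apart in the genome, and, from background knowledge of the gene, they fall in the region of its alternatively spliced variant exons. Cd44 2614, which holds the stop codon with 12 bases after it, gave 3143 and 3430.2, a log2 ratio of 0.13 (error 0.20). Cd44 5494, which lies 2880 bases further on in both transcript and genome at chr2:102651398-102651457, gave 1225 and 1378, a log2 ratio of 0.17 (error 0.20). The last 3 log2 ratios were thus within their errors, and Cd44 1777 was the only probe of the gene beyond its own.

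The log2 ratio of Cd44 1777 exceeded those of the other Cd44 probes by 0.33, 0.38 and 0.34, against combined errors of 0.30, 0.29 and 0.29. The other 3 probes differed from each other by at most 0.054, less than their combined errors. The excess was not shared by Cd44 1965, the other probe of the variable region, and it is only slightly larger than the combined errors that the software assigns. Cd44 5494 shared 20 bases on the same strand with 3 probes listed for other genes (4930478P22Rik, Nlgn3 and Tomm34). It also shared 20 bases with 4 probes on the opposite strand, whereas the other Cd44 probes shared none on either strand. Levels of exon forms cannot be read from these probes, since signals of different probes are not on a common scale.

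Cd24a, the second gene of the CD44 and CD24 profile, had nearly identical signals. Its probe at chr10:43303706-43303765 gave 9838 in the ALDH-negative population and 9844 in the ALDH-positive one, a log2 ratio of 0.00083 (error 0.20). Thus neither a lower Cd24a signal nor a Cd44 signal past the limits was measured in the ALDH-positive population. With 1 array each, a small difference cannot be told from that between separate sorts. As these are bulk samples, a share of cells that expresses more of a gene and a change in RNA per cell cannot be told apart, for this gene and for all others here.

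Prom2 was the member with the largest difference, and its pair of probes did not give the same picture. Prom2 3957 gave 189 in the ALDH-negative population and 579 in the ALDH-positive one. The log2 ratio was 1.62 (error 0.21), a ratio of 3.06, and the Z-score was 6.68. None of the 500 probes nearest in signal had a larger log2 ratio, and 418 of all measured probes did. Prom2 1796, across the exon junction, was not well above background on either array, with processed signals of 6.98 and 8.79 and mean signals of 74.3 and 75.5 over backgrounds of 57 and 58. The array files list the same pair of transcripts for both probes. The higher Prom2 signal therefore rests on 1 probe and 1 spot per array, and the second probe neither showed nor could test the difference.

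Prom2 3957 also lay at the edge of the array, in column 163 of 164. In the last 2 columns, 8.06% of 434 measured spots were higher and 8.06% were lower, against 1.28% and 2.57% in all other columns. Around Prom2 3957, 12 of 124 measured probes within 10 rows and columns were higher and 5 were lower. The 14 within 2 rows and columns had log2 ratios from -0.47 to 4.69 with a median of 0.62, and 4 of them were higher and 1 was lower. The median of the wider neighbourhood was 0.051, so that the log2 ratio of Prom2 3957 over it was 1.56. Over the median of the closest spots its excess is smaller. The part of the edge in the Prom2 value was not tested.

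**Figure D3:**
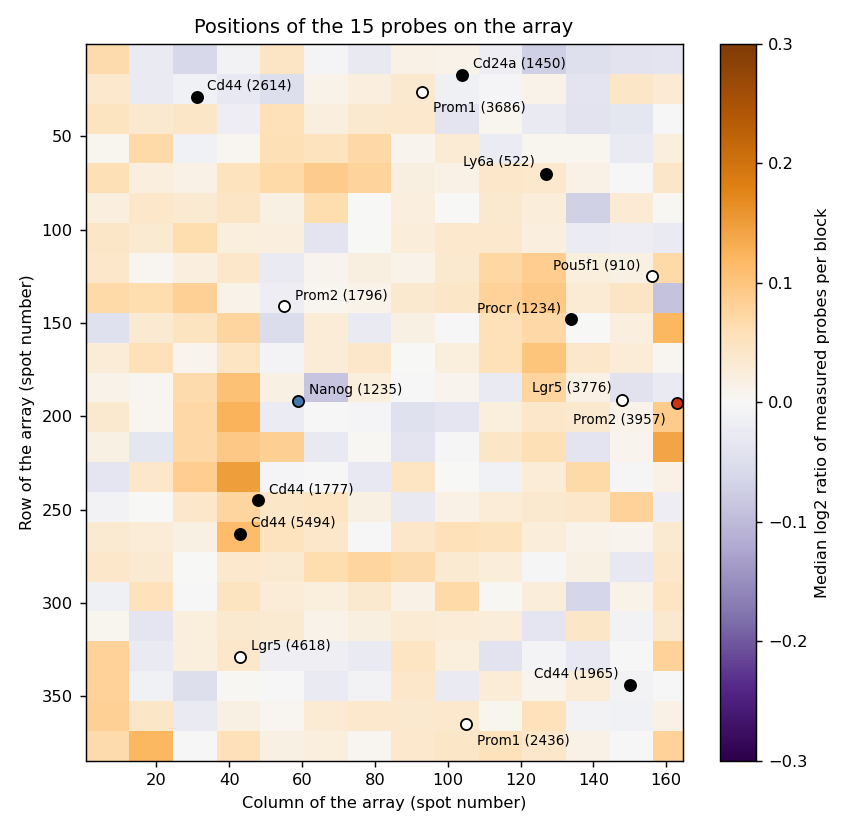
Positions of the 15 probes by row and column of the array (spot numbers), over the median log2 ratio of measured probes in blocks of spots (colour scale), with filled points for measured probes, red for Prom2 3957 (higher), blue for Nanog 1235 (lower) and open points for probes not well above background. Prom2 3957 is the only member in the last 2 columns, and Nanog 1235 lies in the interior at row 192 and column 59.

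Prom1, which encodes the stem cell antigen CD133, was not well above background with either of its probes. The processed signals of Prom1 2436 were 2.79 in the ALDH-negative population and 2.99 in the ALDH-positive one, and those of Prom1 3686 were 3.27 and 3.04. Lgr5, the R-spondin receptor, was likewise not well above background. Lgr5 3776 gave 3.09 and 3.28, and Lgr5 4618 gave 3.08 and 3.26. Thus 3 of the 9 genes, Pou5f1, Prom1 and Lgr5, had no measured probe, and no order can be given to their values. The lowest processed signal that was well above background was 12.3 for the ALDH-negative array and 13.5 for the other. Signals up to 17.2 and 18.3, respectively, were not well above background, so small amounts of these transcripts could not be compared. Pou5f1 was marked as significant over background on both arrays, though not well above it.

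Procr, the protein C receptor, was well above background in both populations. Its probe at chr2:155580945-155581004 gave 3612 in the ALDH-negative population and 4047 in the ALDH-positive one, a log2 ratio of 0.16, error 0.20 and Z-score 0.86. The difference was within the error. Ly6a, which encodes SCA-1, was nearer to the limits. Its probe at chr15:74825553-74825612 gave 59.2 and 93.2, a log2 ratio of 0.65 (error 0.23). The ratio of 1.57 passed the limit of 1.5, but the Z-score of 1.69 did not reach 2.0, so that it was not called. A probe that is not called may still differ between the populations, as replicates would be needed to tell.

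Other genes of the same pathways were taken from 7 lists, with 116 genes in all and 1 probe per gene, the brightest of the measured ones. Of these genes, 77 were measured, 5 were higher in ALDH-positive cells and 2 were lower. Over the 19218 measured genes of the array, 1.62% were higher and 2.9% were lower. The median log2 ratio was 0.080 for the 77 genes and 0.026 for all genes.

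Of 26 further genes of the pluripotency network, 16 were measured, 0 were higher and 1 was lower, with 8 log2 ratios on either side of 0 and a median of -0.0080. The lower gene was Tdgf1, which encodes CRIPTO, the co-receptor of NODAL. It gave 510 in the ALDH-negative population and 318 in the ALDH-positive one, a log2 ratio of -0.68, error 0.20 and Z-score -2.71. Nodal itself gave 76.1 and 48.5, a log2 ratio of -0.65 that was not called. On the other side, Tfcp2l1, a transcription factor of naive pluripotency, had a log2 ratio of 0.73 with a Z-score of 1.95, and Lin28a, an RNA-binding protein, had 0.58, neither of which was called. Sox2, the usual partner of OCT4, and 9 others of the list were not well above background on either array. By the brightest probe of each, the measured genes of the network thus lay evenly on both sides of 0. A second probe gave 0.86 for Stat3, whose brightest gave 0.17, and 0.55 for Tfcp2l1.

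For the partners of CD44, 14 of 17 genes for its ligands, cytoskeletal linkers, proteases and splicing factors were measured, with 1 higher, 0 lower and a median log2 ratio of 0.15. The higher gene was Esrp1, an epithelial splicing regulator known to favour variant exons of Cd44, which gave 635 and 979, a log2 ratio of 0.62 (error 0.20). A second probe of Esrp1 also gave 0.62. Its relative Esrp2 had 0.32 and was not called. Hyal1, a hyaluronidase, had 0.72 with a Z-score of 1.94, and Spp1, which encodes the CD44 ligand osteopontin, had -0.26, and neither was called. Of 9 genes for partners of CD24 and PROCR, 8 were measured and none was called. The selectin Selp had 0.45 there and protein C itself (Proc) had -0.35. Siglecg, a receptor for CD24, stood well above background on the ALDH-positive array alone, with signals of 9.84 and 27.9. Its log2 ratio had an error of 0.55, and it was not called. Against the lowest signal well above background on the ALDH-negative array, its fold was 2.13.

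Among 20 other surface markers of stem-like cells, 13 were measured and none was called, with a median log2 ratio of 0.017. The farthest from 0 were Cd34 and Epcam, both at 0.40, Itgb3 at 0.32 and Cd14 at 0.27. The Cd34 spot lay in row 1 of the array, with signals of 46.3 and 60.9, and the Epcam spot in column 163. In the R-spondin and LGR pathway, 8 of 15 genes were measured and none was called, with 3 log2 ratios above 0 and a median of -0.093. Lgr4, the widely expressed relative of Lgr5, stood well above background on the ALDH-positive array alone. It gave 16.1 and 31.9, a ratio of 1.99 with an error of 0.38 (log2), and was not called. Lrp6, a WNT co-receptor, had -0.36 with a second probe at -0.55, and the ligase gene Rnf43 had 0.31. Axin2 and Ascl2, commonly used as WNT targets, were not measured.

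Of 19 other genes of the LY6 and uPAR family, to which Ly6a belongs, 18 were on the array and 9 were measured, with 1 higher, 1 lower and a median log2 ratio of 0.17. Ly6c1, a close relative of Ly6a, was higher with 144 and 238, a log2 ratio of 0.72 (error 0.21), whereas its second probe gave 0.26. Lypd3 at 0.50 and Ly6e at 0.44 passed the Z-score but not the ratio limit. Ly6g6e was lower, with a bound of 1.61-fold, as it stood above background on the ALDH-negative array alone, and its spot lay in column 162. Its signals were 20.5 and 3.42, the error of its log2 ratio was 1.48, and under other processing the log2 ratio ranged from -2.88 to -0.42. Close relatives of this family can share sequence, and 60-base probes may not separate them fully.

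The list of apical and microvillus membrane genes, chosen for the site at which prominins reside, held the most calls: of 13 genes, 10 were measured, 3 were higher and 0 were lower, with a median log2 ratio of 0.51. Tspan1, a tetraspanin, gave 161 in the ALDH-negative population and 399 in the ALDH-positive one, a log2 ratio of 1.31 (error 0.21). Espn, which encodes the actin-bundling protein espin, gave 125 and 299, a log2 ratio of 1.26 (error 0.21), with 1.12 from its second probe. Pard6b, a polarity protein, gave 63.6 and 106.9, a log2 ratio of 0.75, error 0.22 and Z-score 2.02, and kept its call in 7 of 12 alternatives. These 3 spots lay in columns 47, 17 and 127, away from the edge at which Prom2 3957 lies. Crb3, another polarity gene, had 0.76 and fell just short of the Z-score limit. Cdhr5, a protocadherin of microvilli, stood well above background on the ALDH-positive array alone and was not called. Its signal there was 1.18-fold the lowest signal well above background on the ALDH-negative array, and its log2 ratio had an error of 1.43. Since Prom2 and this list were chosen with results in view, the list is a description and no support for the Prom2 value.

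**Figure D4:**
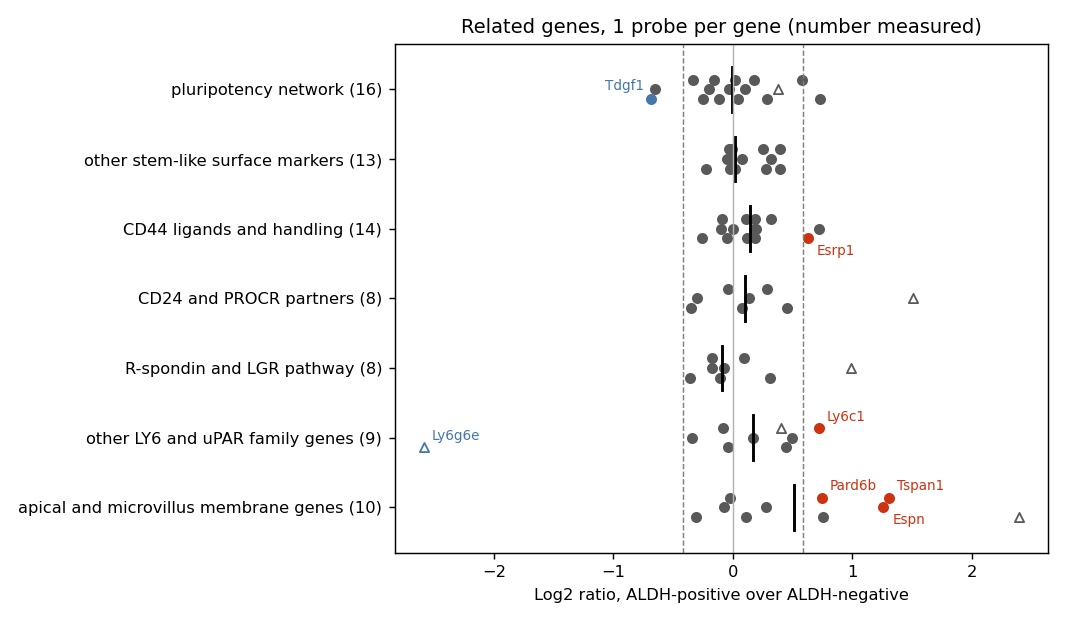
Log2 ratio of ALDH-positive over ALDH-negative cells (horizontal) of the measured genes of 7 lists (vertical, number measured in brackets), 1 probe per gene, with red for higher, blue for lower, grey for not called, open triangles where 1 array was below background, black bars for list medians and dashed lines at ratios of 1.5 and 0.75. The medians lie between -0.093 and 0.51, and 3 of the 5 higher genes belong to the apical and microvillus list.

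The values held to different degrees when the signals were processed in other ways. Prom2 3957 stayed higher in all 11 alternatives, with log2 ratios from 1.30 to 2.09. Nanog 1235 stayed lower in 10 of 11, with log2 ratios from -0.9996 to -0.54, and was not called where the Z-score was taken over all probes of the array, at -1.56. Ly6a had log2 ratios from 0.34 to 1.04 and was called in none. Without normalization between the arrays the median log2 ratio of all measured probes was 0.49, so that signals were mostly higher on the ALDH-positive array. The log2 ratios of the Cd44, Cd24a and Procr probes then lay between 0.53 and 0.93. The spiked-in controls, given below, had a smaller median of 0.089.

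**Figure D5:**
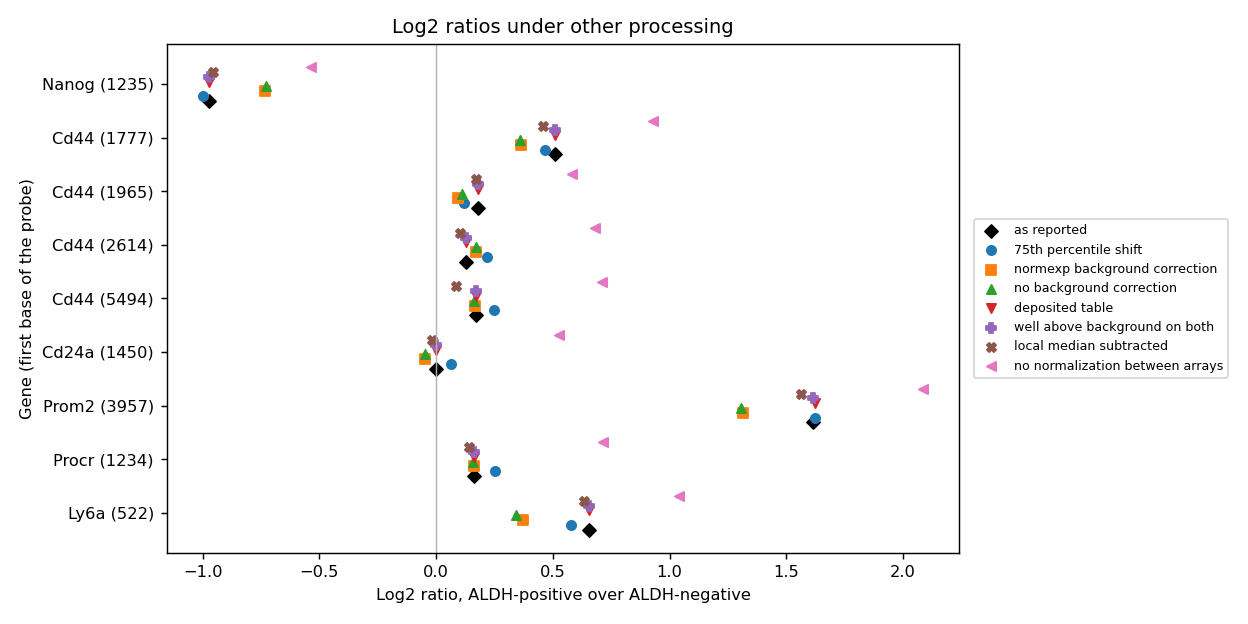
Log2 ratio of ALDH-positive over ALDH-negative cells (horizontal) of the 9 measured probes (vertical) as reported (black diamonds) and under 7 other ways of processing (coloured symbols). Prom2 3957 lies above 1.3 and Nanog 1235 below -0.5 under each of them, and the points without normalization lie to the right of the others for every probe.

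Of the arrays as a whole, 48.5% and 49.4% of the probes were well above background. The share of calls that were higher was 33.3%, or 58.7% without normalization. Probes printed on 10 spots had a median SD of 0.059 and 0.047 (log2) on the ALDH-negative array and on the other, respectively, but each member probe had 1 spot. Before normalization, the 8 spiked-in control RNAs that were well above background had a median log2 ratio of 0.089, against 0.49 over all measured probes. Of these 8, 7 lay between 0.032 and 0.18, and the other, at signals of 82.3 and 48.4, had -0.76. That control, like Nanog, thus had the smaller signal on the ALDH-positive array, and its bearing on the Nanog value was not tested. All 7 epithelial markers were measured, with log2 ratios above 0 and a summed signal of 346545 and 394375; Cldn7 was higher at 0.85, and the keratin gene Krt8 gave 106882 and 120908. Of 10 leukocyte markers, 5 were measured, whereas Ptprc, Adgre1 and Lyz2 were among those not well above background, and the summed signal was 10060.1 in the ALDH-negative population and 6344 in the ALDH-positive one, chiefly through Itgam, which was lower at -0.94 with other probes at -0.67 and 0.38. Log2 ratios of 4 of the 5 were below 0, and that of Cd68 was 0.44, from 762 to 1032, with a Z-score of 2.33 but a ratio short of the limit and a second probe at 0.069. Of 6 endothelial markers 2 were measured and Kdr was lower at -0.43, from 7292 to 5394, whereas Pecam1 had 0.21 and was not called; Cdh5 was not well above background, and the summed signal of 7337 and 5441 was nearly all Kdr. Of 8 fibroblast markers 4 were measured and Postn was higher at 0.96, whereas Col1a1 had -0.70, Col1a2 -0.020 and Pdgfra -0.027, none called. Dcn and Lum were not well above background, and the summed signal was 293 and 359.7. Both populations were sorted from 1 cultured cell line, so these marker signals are not a measure of other cell types in the samples. Their relation to the members' values was not tested. Of 9 ALDH isoforms able to act on ALDEFLUOR, 7 were measured, with log2 ratios from -0.049 to 0.23 and none called, though a second probe of Aldh3a1 gave 0.62.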

How the data were processed

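The mRNA of sorted 4T1 cells was measured in 2 populations, ALDH-positive and ALDH-negative (1 sample each), on Agilent SurePrint G3 Mouse arrays, both on 1 slide. The methods name the RNeasy Mini Kit for the RNA, and the sample labels name ReliaPrep. The deposited scanner files, from Agilent Feature Extraction (9.5.1.1 in the methods, 10.7.1.1 in the file headers), give intensity per spot. A table deposited by the authors gives linear, quantile-normalized intensity (column medians 13.7 and 13.7) and correlates at 0.9999 with the processed signals of its own array.

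Processed signals under 1 were set to 1, control and outlier spots were left out, log2 signals of repeated spots were averaged and the 55681 probes were quantile-normalized over both arrays. The study does not define its Z-score, and each log2 ratio was set against the 250 next brighter and the 250 next dimmer probes. Where 1 array was below background, the fold was set against the higher of the dim probe's own signal and the lowest signal well above background on that array. This bound leaves out the errors and belongs to the processing as reported. It is not a minimum, since processed signals up to 17.2 on the ALDH-negative array and 18.3 on the other were not well above background. Symbols of the other genes came from RefSeq (GRCm38.p6) for 27229 probes. The members, lists and limits were chosen with earlier results of these data known. The genes named are all members, of each related list those past the limits and up to 4 others farthest from 0, and up to 4 markers per cell type, not all of which are printed. Alternatives were a 75th percentile shift, normexp (limma 3.58.1, offset 50), no background correction, the deposited table, only probes well above background on both arrays, subtraction of the local median (10 rows and columns), Z-score windows of 100 and 500 or all probes, a ratio limit of 1.5 both ways, the median probe of a gene and, added after seeing the data, no normalization. The steps were tested on simulated data (Python 3.11.15, R 4.3.3). The number of arrays, 1 per population, limits the precision.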

Additional observations from a re-analysis of the deposited data

How the results depend on the processing

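No paired analysis was possible because each population had a single array, and leaving out a replicate was not possible for the same reason. Of 46 recounts, 40 were within 1.5 times the reported count. Of the members, 0 were lower with a Z-score over all probes, where Nanog was lost. Of the related genes, 2 in place of 5 were higher with normexp and 2 without background correction, with Esrp1, Ly6c1 and Pard6b lost in both. These genes were also lost with a Z-score over all probes, Pard6b with Z-score windows of 100 and 500, and Ly6c1 with the median probe. With only probes well above background on both arrays 1 was lower in place of 2, as Ly6g6e had no value there. Without normalization 1 was lower, and with the Z-score taken over all probes also 1, both without Tdgf1. Tspan1 and Espn were higher in all 12 alternatives. Of 63 recomputed log2 ratios of members, 48 moved by less than their own error, 15 by more, and 0 of the called ones changed sign. With normexp and without background correction, Nanog had -0.73 in both, Prom2 1.31 and 1.30, and Ly6a 0.37 and 0.34. Cd24a, not called, lay between -0.048 and 0.53. Signals near background limit what can be said of Pou5f1, Prom1, Lgr5 and Prom2 1796.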
